A study of Mus musculus with 12 samples.

Results

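The interferon-stimulated genes described here are 37 genes known to be induced by interferons, found by gene symbol in the deposited tables. They were chosen by name, with earlier results of these data known. All 37 were listed, of 25164 genes in all, and all 37 passed the filter on low counts, with at least 15 counts in every library. They were measured by RNA sequencing of liver in 12 libraries, 4 from each of 3 groups, and 10 mice had been assigned to each group. HFD + fenofibrate mice were on a high-fat diet for 14 weeks and in the last 4 of these, after 10 weeks of diet alone, were gavaged with fenofibrate, an agonist of the nuclear receptor PPARA that lowers blood lipids. HFD mice were fed the same high-fat diet for 14 weeks without the drug, and Control mice a normal diet for 14 weeks. The sources used here do not give strain, sex, age or vehicle. The comparisons ask what the high-fat diet did to these genes, and what fenofibrate did in mice on that diet.

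Interferons are secreted proteins that bind receptors on the cell surface and activate the kinases JAK1, TYK2 and JAK2, which phosphorylate STAT proteins. Type I interferons lead to a complex of STAT proteins with IRF9 that binds the interferon-stimulated response element (ISRE), while interferon gamma leads to STAT dimers that bind the gamma-activated site (GAS). The genes induced through these elements encode virus sensors, antiviral proteins, GTPases that act on intracellular parasites and parts of the antigen presentation pathway, and hepatocytes as well as immune cells of the liver can express them.

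Promoters of 6 of the genes are shown so that the ISRE letters can be seen in place: of the genes with values per library below whose window holds these letters, no match ending more than 30 bases after the start, they are the 6 with the smallest p in any comparison. The windows are RefSeq sequences of build GRCm38.p6, taken around each start site, read 5′ to 3′ on the strand of the gene, and capitals mark the letters GAAANNGAAA on either strand. Ddx58 lies at chr4:40239796-40239873, Oas1a at chr5:120907496-120907595, Ifitm3 at chr7:141010715-141010792 and Isg15 at chr4:156200825-156200946, all on the minus strand. Ifit3 lies at chr19:34583323-34583466 and Gbp7 at chr3:142530233-142530342, both on the plus strand.
Ddx58: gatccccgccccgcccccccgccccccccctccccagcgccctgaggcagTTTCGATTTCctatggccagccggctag
Oas1a: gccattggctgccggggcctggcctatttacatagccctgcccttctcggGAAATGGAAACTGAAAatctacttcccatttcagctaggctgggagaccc
Ifitm3: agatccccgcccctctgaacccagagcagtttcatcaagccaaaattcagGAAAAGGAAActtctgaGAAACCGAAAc
Isg15: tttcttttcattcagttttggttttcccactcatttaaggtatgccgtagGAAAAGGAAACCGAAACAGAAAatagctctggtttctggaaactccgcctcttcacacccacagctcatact
Ifit3: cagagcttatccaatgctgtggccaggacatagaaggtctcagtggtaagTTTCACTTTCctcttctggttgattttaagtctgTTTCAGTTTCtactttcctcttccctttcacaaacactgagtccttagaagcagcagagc
Gbp7: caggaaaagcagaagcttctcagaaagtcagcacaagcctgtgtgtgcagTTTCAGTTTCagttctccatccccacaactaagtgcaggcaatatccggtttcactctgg

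In Isg15 the letters occur 3 times in an overlapping run that begins 78 bases before the start, and in Oas1a they overlap 2 times from 20 bases before it. Ifit3 has 2 separate copies, the first 156 bases before the start, and Gbp7 has 1 copy 53 bases before it; in both genes, as in Ddx58, the match is on the opposite strand, so that the printed capitals begin with TTTC. Of the 37 genes, 28 had a promoter window of 250 bases before to 50 bases after a start, and 17 of these 28 (60.7%) held the ISRE letters, against 1079 of 27025 genes with a window (3.99%). The GAS letters TTCNNNGAA, which read the same on both strands, were in 9 of 28 (32.1%), against 9.55% of all genes. Both elements were in 6 of 28 (21.4%), against 0.614% of all genes, and neither was in 8 of 28 (28.6%), against 87.1%. In Ifitm3 the GAS letters run into the second ISRE copy. These shares describe letters in a window and were not tested; Oas2, Usp18, Iigp1, Gbp6, Dhx58, Rtp4, Ifi27, Parp14 and Zbp1 had no matched window.

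**Figure D1:**
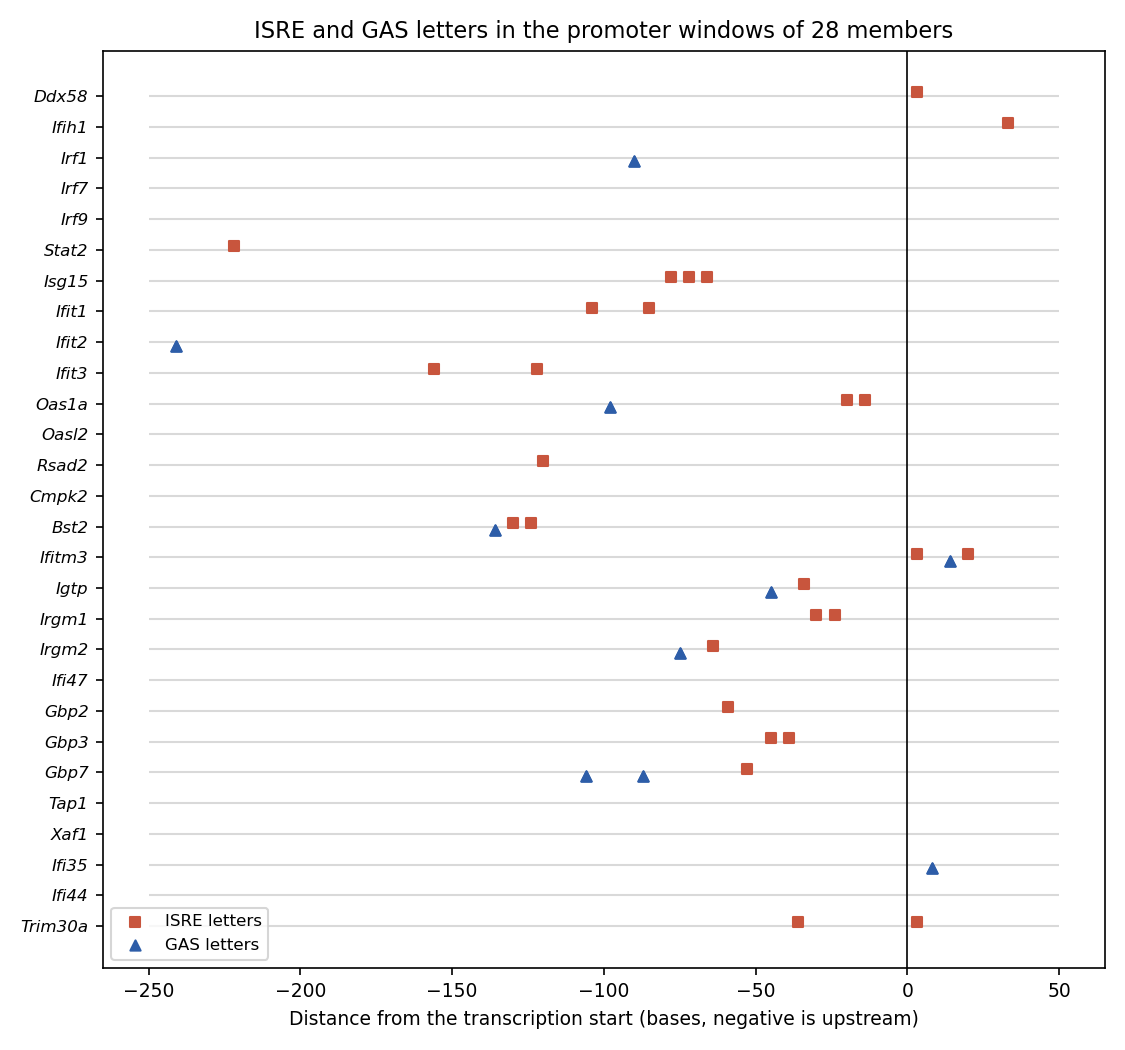
Position of the ISRE letters (squares) and GAS letters (triangles) in the promoter windows of 28 interferon-stimulated genes; the x axis is the distance in bases from the transcription start, and each grey line is the window of 1 gene. Most squares lie within about 150 bases upstream of the start, and 8 genes have neither mark.

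Total counts per library ran from 15797016 to 18514481, and 13477 genes were tested. Nothing in the labels tells whether mice shared a cage or a sequencing run, so each p-value measures only how these libraries scatter, which may be partly technical. Summed hepatocyte markers were 122000 to 151000 CPM of total counts in every library. HFD + fenofibrate library 1 also held pancreatic acinar transcripts (2060 CPM over 12 genes, against at most 31.5 CPM in the other libraries). Striated muscle transcripts summed to 175 CPM in HFD + fenofibrate library 1 and 134 CPM in library 3, against at most 1.03 CPM elsewhere. In HFD + fenofibrate library 1 erythroid markers summed to 1190 CPM, against at most 485 CPM elsewhere, and the plasmacytoid dendritic cell list to 30.4 CPM, of which Klk1, a kallikrein that the pancreas also expresses, made 22.8 CPM, against at most 5.69 CPM elsewhere. Control library 3 held more lymphocyte transcripts than any other library, as given below.

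Levels are in CPM, counts per library total, corrected by TMM factors (trimmed mean of M-values), and log2 fold changes are given ± SE. A gene is said to have risen or fallen when its adjusted p, from the quasi-likelihood test of edgeR, Benjamini-Hochberg adjusted over all genes tested, was under 0.05. The mean level per gene over the 12 libraries ran from 2.67 CPM for Gbp6 to 296 CPM for Iigp1, with a median of 9.43 CPM. Per kilobase of exon, the highest levels were those of Ifitm3 (294 CPM per kb), Bst2 (113), Ifi27 (53.4) and Iigp1 (50.8), and the lowest those of Gbp6 (0.448) and Ifi44 (0.464). Members with near-identical relatives, such as Oas1a and Oas1g, Ifit3 and Ifit3b, the Gbp genes, the immunity-related GTPases and Trim30a, can share reads. Their counts depend on how the counting treated such reads. Igtp and Irgm2 overlap on the same strand, so their counts are uncertain in the same way.

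Under the high-fat diet, 5 of the 37 genes rose against Control (13.5%), Iigp1, Ifi27, Ifi44, Oas1a and Ifitm3, and 0 fell. Among all genes tested, 6.13% rose and 6.64% fell. The median log2 fold change of the 37 genes was 0.30, against -0.017 for all genes, and 34 of 37 were above 0, against 47.6% of all genes. With fenofibrate on the high-fat diet, 0 of 37 rose and 1 (2.70%), Iigp1, fell against HFD, where 6.89% of all genes rose and 6.59% fell. The median was -0.11, against 0.011 for all genes, with 12 of 37 above 0 and 25 below. HFD + fenofibrate livers had 2 genes (5.41%) higher than Control livers, Ddx58 and Irf9, and 0 lower, where 4.86% of all genes rose and 4.31% fell; the median was 0.26, against -0.013, with 31 of 37 above 0. At an unadjusted p under 0.05 the counts were 10 higher and 0 lower for HFD against Control, 1 higher and 1 lower for HFD + fenofibrate against HFD, and 9 higher and 0 lower for HFD + fenofibrate against Control. The shares of all genes at that p were 12.7% higher for HFD against Control, 15.8% higher and 15.5% lower for HFD + fenofibrate against HFD, and 11.9% higher for HFD + fenofibrate against Control. No lower share at that p is given for the comparisons with Control, so their counts of 0 lower stand without a background. DESeq2 called 6 higher and 0 lower for HFD against Control, 0 higher and 1 lower for HFD + fenofibrate against HFD, and 7 higher and 0 lower for HFD + fenofibrate against Control. Of all genes that DESeq2 tested, 6.68% rose for HFD against Control, 8.72% fell for HFD + fenofibrate against HFD and 5.62% rose for HFD + fenofibrate against Control. In the other direction, DESeq2 called 967 of 14883 genes lower for HFD against Control and 1141 of 13424 higher for HFD + fenofibrate against HFD. For HFD + fenofibrate against Control it called 701 of 14883 lower (4.71%). By edgeR with all 12 libraries, the share of members that rose was above the background of rising genes for HFD against Control and close to it for HFD + fenofibrate against Control, where DESeq2 gave 18.9% of members. The edgeR share for HFD against Control fell to 5.41% without HFD library 4, where 4.02% of all genes rose. It was also 5.41% without Control library 1, where 4.87% of all genes rose, and without Control library 4, where 684 of 13685 did. With any other library left out it was 8.11% to 37.8%. Both comparisons with Control use the same Control libraries, and both with HFD use the same HFD libraries, so the 3 sets of values are not independent. These are bulk livers, in which fewer cells of a type and less RNA per cell cannot be told apart.

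The scaling bears on the fenofibrate comparisons. With total counts and no TMM scaling, the median of all genes was 0.18 for HFD + fenofibrate against HFD, and the members' median became 0.07 with 23 of 37 above 0, so its direction flipped. Relative to the median of all genes it was -0.11, against -0.12 with TMM. Against Control, the members' median became 0.48 and that of all genes 0.20. RLE factors and DESeq2 gave medians within 0.01 of those with TMM.

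**Figure D2:**
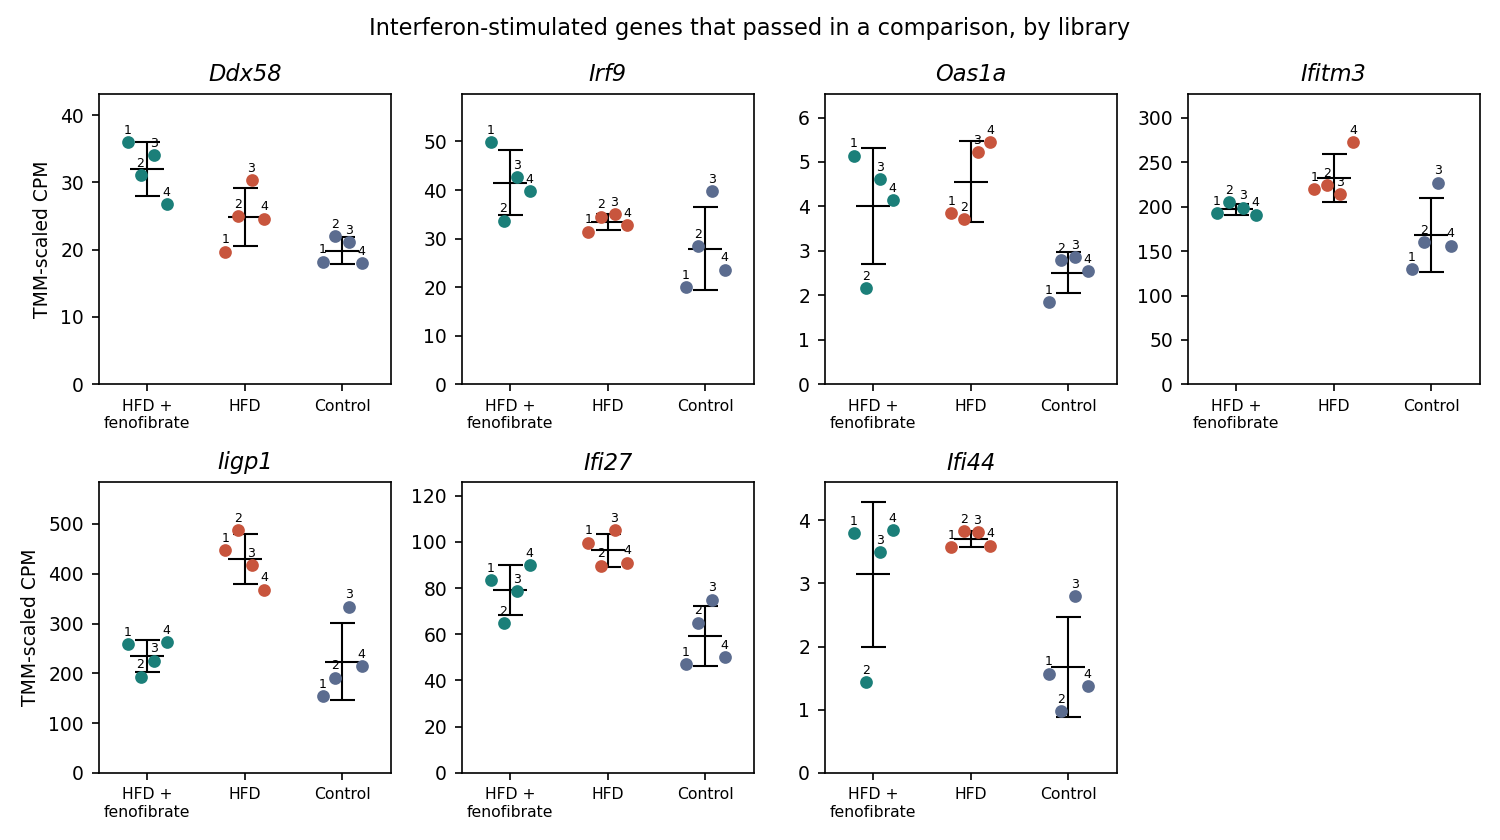
TMM-scaled CPM (y axis, from 0) of the 7 interferon-stimulated genes that passed in at least 1 comparison, by group; each point is 1 library with its number, the long tick is the group mean and the bars are ± 1 SD (n = 4 libraries). Iigp1 was 368 to 487 CPM in the HFD libraries, above all 8 libraries of the other groups.

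Iigp1, an immunity-related GTPase that acts on the vacuoles of intracellular parasites, passed in 2 of the 3 comparisons, and the other 6 passing genes in 1 each. Its gene (ENSMUSG00000054072) lies on chromosome 18 at 60376029 to 60392627 on the plus strand of GRCm38. It had 258, 193, 225 and 263 CPM in HFD + fenofibrate livers, 448, 487, 417 and 368 CPM in HFD livers and 154, 191, 334 and 214 CPM in Control livers. The HFD libraries lay above every library of the other groups, and the HFD + fenofibrate and Control libraries overlapped. Iigp1 rose in HFD livers against Control (430 ± 50.4 against 223 ± 77.6 CPM, SD, n = 4 each; log2 fold change 0.95 ± 0.19, adjusted p = 0.00407). It fell in HFD + fenofibrate livers against HFD (235 ± 32.5 against 430 ± 50.4 CPM; log2 fold change -0.87 ± 0.19, adjusted p = 0.00915). HFD + fenofibrate and Control livers differed by 0.07 ± 0.19 (adjusted p = 0.855). Without HFD + fenofibrate libraries 1 and 3, the fenofibrate difference was -0.91 with an adjusted p of 0.113, and the diet difference kept passing.

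Of the 5 immunity-related GTPases, Iigp1 was the one that passed. Irgm2, which belongs to the regulatory branch of the family, had 96.7, 45.7, 71.0 and 77.9 CPM in HFD + fenofibrate livers, 56.6, 74.2, 48.7 and 57.5 CPM in HFD livers and 37.2, 56.5, 102 and 36.1 CPM in Control livers. All 3 groups overlapped. None of its 3 changes passed, the largest being 0.33 ± 0.29 for HFD + fenofibrate against Control (adjusted p = 0.51). Igtp, Irgm1 and Ifi47 did not pass either, and the medians of the class were 0.03 for HFD against Control, -0.03 for HFD + fenofibrate against HFD and 0.07 for HFD + fenofibrate against Control.

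Among the other interferon-induced genes, Ifi27 and Ifi44 rose under the high-fat diet. Ifi27 (ENSMUSG00000064215, chromosome 12, 103434211 to 103440239, plus strand), which encodes a small protein of the mitochondrial and nuclear membranes, had 83.6, 64.7, 78.6 and 90.1 CPM in HFD + fenofibrate livers, 99.7, 89.8, 105 and 91.1 CPM in HFD livers and 47.0, 65, 75 and 50.1 CPM in Control livers. The HFD libraries were all above the Control libraries, while HFD + fenofibrate overlapped both groups. It rose in HFD livers (96.4 ± 7.26 against 59.3 ± 13.1 CPM, SD, n = 4 each; 0.70 ± 0.14, adjusted p = 0.00456), and the fenofibrate difference from HFD was -0.28 ± 0.14 (adjusted p = 0.185). Ifi44 (ENSMUSG00000028037, chromosome 3, 151730922 to 151749960, minus strand), an interferon-induced cytoplasmic protein, had 3.80, 1.44, 3.50 and 3.84 CPM in HFD + fenofibrate livers, 3.58, 3.83, 3.81 and 3.60 CPM in HFD livers and 1.57, 0.973, 2.80 and 1.37 CPM in Control livers. HFD libraries were close together and above every Control library. Ifi44 rose in HFD livers (3.70 ± 0.134 against 1.68 ± 0.787 CPM; 1.14 ± 0.31, adjusted p = 0.0274), but did not pass without HFD library 2, 3 or 4 or Control library 1, 2 or 4 (adjusted p 0.0536 to 0.0684). Xaf1, Rtp4, Ifi35, Parp14 and Trim30a, the rest of the class, did not pass.

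Of the 6 IFIT and OAS genes, Oas1a passed. The OAS enzymes make the oligoadenylates that activate RNase L, and the IFIT proteins bind viral RNA ends. Oas1a (ENSMUSG00000052776, chromosome 5, 120896256 to 120907521, minus strand) had 5.14, 2.16, 4.62 and 4.14 CPM in HFD + fenofibrate livers, 3.85, 3.71, 5.22 and 5.45 CPM in HFD livers and 1.85, 2.79, 2.86 and 2.55 CPM in Control livers. HFD and Control libraries did not overlap, and HFD + fenofibrate library 2 lay within the Control range. The gene rose in HFD livers (4.56 ± 0.906 against 2.51 ± 0.463 CPM, SD, n = 4 each; 0.86 ± 0.25, adjusted p = 0.0338), and did not pass without HFD library 3 or 4 or Control library 1 or 4 (adjusted p 0.0623 to 0.0996). Ifit3 had 11.1, 7.20, 7.40 and 7.29 CPM in HFD + fenofibrate livers, 8.50, 11.6, 13.9 and 12.1 CPM in HFD livers and 4.53, 9.60, 16.9 and 5.04 CPM in Control livers. Its highest and lowest values were both in Control livers, and none of its changes passed, the largest being -0.49 ± 0.32 for HFD + fenofibrate against HFD (adjusted p = 0.315). Ifit1, Ifit2, Oas2 and Oasl2 did not pass.

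Of the 4 antiviral enzymes and membrane proteins, Ifitm3 passed. Ifitm3 (ENSMUSG00000025492, chromosome 7, 141009586 to 141010770, minus strand), a membrane protein that blocks the fusion of viruses with endosomes, had 193, 205, 199 and 191 CPM in HFD + fenofibrate livers, 220, 224, 214 and 273 CPM in HFD livers and 130, 160, 227 and 156 CPM in Control livers. Control library 3 overlapped the HFD range, and HFD + fenofibrate libraries were all below the HFD libraries. It rose in HFD livers (233 ± 27.3 against 168 ± 41.3 CPM, SD, n = 4 each; 0.47 ± 0.14, adjusted p = 0.0401), but did not pass without HFD + fenofibrate library 1, HFD library 1, 2 or 4, or Control library 1, 2 or 4 (adjusted p 0.0513 to 0.129), with only the 8 libraries compared (adjusted p = 0.0772) or without HFD + fenofibrate libraries 1 and 3 (adjusted p = 0.063). Bst2, the tetherin that holds budding viruses at the cell surface, had 106, 91.5, 110 and 82.0 CPM in HFD + fenofibrate livers, 112, 96.9, 110 and 110 CPM in HFD livers and 79.3, 109, 127 and 85 CPM in Control livers. The groups overlapped, and its largest change was -0.14 ± 0.14 for HFD + fenofibrate against HFD (adjusted p = 0.535), or 0.04 without TMM scaling, where the median of all genes was 0.18. Rsad2 (viperin) and Cmpk2 did not pass.

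Of the 4 RNA and DNA sensors, Ddx58 passed in HFD + fenofibrate livers. Ddx58 (ENSMUSG00000040296, chromosome 4, 40203773 to 40239828, minus strand), which encodes RIG-I, a sensor of viral RNA, had 36.0, 31.1, 34 and 26.8 CPM in HFD + fenofibrate livers, 19.7, 25.0, 30.3 and 24.6 CPM in HFD livers and 18.2, 22.0, 21.1 and 18 CPM in Control livers. HFD + fenofibrate libraries were all above the Control libraries, and the HFD libraries overlapped both. It rose in HFD + fenofibrate livers against Control (32 ± 4.02 against 19.9 ± 2.05 CPM, SD, n = 4 each; 0.69 ± 0.13, adjusted p = 0.00435). Against HFD the difference was 0.36 ± 0.13 (adjusted p = 0.0738), and HFD against Control was 0.33 ± 0.13 (adjusted p = 0.119). Without HFD + fenofibrate libraries 1 and 3 the difference from Control was 0.56 (adjusted p = 0.0825). Ifih1, which encodes the related sensor MDA5, had 29.3, 23.2, 24 and 21.6 CPM in HFD + fenofibrate livers, 20.5, 25.8, 23.8 and 20.5 CPM in HFD livers and 17.3, 17.6, 25.9 and 15.7 CPM in Control livers. Control library 3 alone of the Control libraries overlapped the other groups, lying within the HFD + fenofibrate range and level with the highest HFD library, and the largest change, 0.36 ± 0.15 for HFD + fenofibrate against Control, did not pass (adjusted p = 0.144) but passed without that library (0.54, adjusted p = 0.0194). Dhx58 and Zbp1 did not pass.

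Of the 4 transcription factors, Irf9 passed. Irf9 (ENSMUSG00000002325, chromosome 14, 55603571 to 55610030, plus strand), the DNA-binding subunit of the ISRE-binding complex, had 49.9, 33.7, 42.6 and 39.8 CPM in HFD + fenofibrate livers, 31.4, 34.5, 35.0 and 32.7 CPM in HFD livers and 20.0, 28.4, 39.7 and 23.6 CPM in Control livers. Control library 3 overlapped the HFD + fenofibrate range and the other Control libraries did not. The gene rose in HFD + fenofibrate livers against Control (41.5 ± 6.70 against 27.9 ± 8.57 CPM, SD, n = 4 each; 0.57 ± 0.17, adjusted p = 0.045). It did not pass with only the 8 libraries compared (adjusted p = 0.0883), with a mean of at least 1 CPM as the filter (adjusted p = 0.0531), or when 9 of the 12 libraries were left out one at a time (adjusted p 0.0527 to 0.132). Control library 3, HFD library 3 and HFD + fenofibrate library 2 were the others. Without HFD + fenofibrate libraries 1 and 3 the difference from Control was 0.41 (adjusted p = 0.369). Stat2, its partner in the complex, had 66.7, 41.1, 62.6 and 67.2 CPM in HFD + fenofibrate livers, 52.1, 60.9, 59.2 and 52.3 CPM in HFD livers and 50, 42.6, 63.7 and 55.7 CPM in Control livers. The groups overlapped and the largest of its changes, 0.17 ± 0.15 for HFD + fenofibrate against Control, did not pass (adjusted p = 0.527). Irf1 and Irf7 did not pass.

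Neither gene of the ISG15 pathway passed. Isg15, a ubiquitin-like protein attached to other proteins, had 7.02, 4.68, 6.08 and 4.93 CPM in HFD + fenofibrate livers, 5.13, 6.07, 7.37 and 6.51 CPM in HFD livers and 2.24, 4.47, 6.72 and 2.12 CPM in Control livers. Control library 3 alone was within the range of HFD, and the largest change was 0.70 ± 0.29 for HFD against Control (adjusted p = 0.137), which passed without that library (1.10, adjusted p = 0.0139). Usp18, the enzyme that removes ISG15 and dampens receptor signalling, had 9.24, 4.86, 8.95 and 6.41 CPM in HFD + fenofibrate livers, 5.26, 6.18, 7.12 and 8.06 CPM in HFD livers and 3.13, 10.2, 10.2 and 3.11 CPM in Control livers. Control libraries fell into a high pair and a low pair, and no change passed, the largest being 0.16 ± 0.34 for HFD + fenofibrate against Control (adjusted p = 0.824). Its sign turned without Control library 1 (-0.07) or 4 (-0.08).

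None of the 4 guanylate-binding proteins, GTPases that target pathogen vacuoles, passed, nor did Tap1, a subunit of the peptide transporter for antigen presentation. Gbp7 had 12.2, 7.32, 9.73 and 7.34 CPM in HFD + fenofibrate livers, 8.57, 12.3, 10.0 and 6.94 CPM in HFD livers and 5.54, 3.37, 13.4 and 5.79 CPM in Control livers. Control library 3 had its highest value, and the largest change was 0.43 ± 0.32 for HFD against Control (adjusted p = 0.43), which passed without that library (0.94, adjusted p = 0.025). Gbp3 had 7.66, 3.60, 7.40 and 6.65 CPM in HFD + fenofibrate livers, 6.75, 11.3, 7.55 and 7.81 CPM in HFD livers and 2.96, 6.10, 11.8 and 4.79 CPM in Control livers. Its largest change was -0.40 ± 0.33 for HFD + fenofibrate against HFD (adjusted p = 0.433), and the groups overlapped. Tap1 had 38.9, 26.1, 38.4 and 26.2 CPM in HFD + fenofibrate livers, 22.5, 33, 27.4 and 24 CPM in HFD livers and 26.2, 17.9, 41.0 and 15.9 CPM in Control livers. Its largest change was 0.36 ± 0.24 for HFD + fenofibrate against Control (adjusted p = 0.385), and it passed without Control library 3 (0.69, adjusted p = 0.0486).

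By mean level, 12 of the 37 genes were highest in HFD + fenofibrate livers, 23 in HFD livers and 2, Rsad2 and Ifi47, in Control livers. The 20 members without per-library values had means of 2.67 to 45.9 CPM, and none of their changes passed with all 12 libraries.

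Within a group the genes moved together between libraries. Control library 3 had the highest level of the 4 Control libraries in 36 of 37 genes (97.3%), against 3071 of 13477 genes tested (22.8%), and in 59 of 84 other interferon-induced genes (70.2%). Control library 1 was lowest for 22 of the 37 (59.5%, against 30.7% of all genes) and library 4 for 12 (32.4%, against 20.3%). HFD + fenofibrate library 1 was highest for 24 of 37 (64.9%, against 20.5% of all genes) and library 2 lowest for 29 (78.4%, against 31.1%). HFD library 1 was lowest for 25 (67.6%, against 27.9%). The ratio of the highest to the lowest library had a median of 1.64 in HFD + fenofibrate, 1.5 in HFD and 2.25 in Control livers over the 37 genes, and for all genes 1.36 in HFD + fenofibrate, 1.34 in HFD and 1.43 in Control livers. It was widest for Oas2 with fenofibrate (3.49), Oasl2 in HFD (3.0) and Ifit1 in Control (5.19), and narrowest for Ifitm3 (1.07), Ifi44 (1.07) and Ddx58 (1.22).

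**Figure D3:**
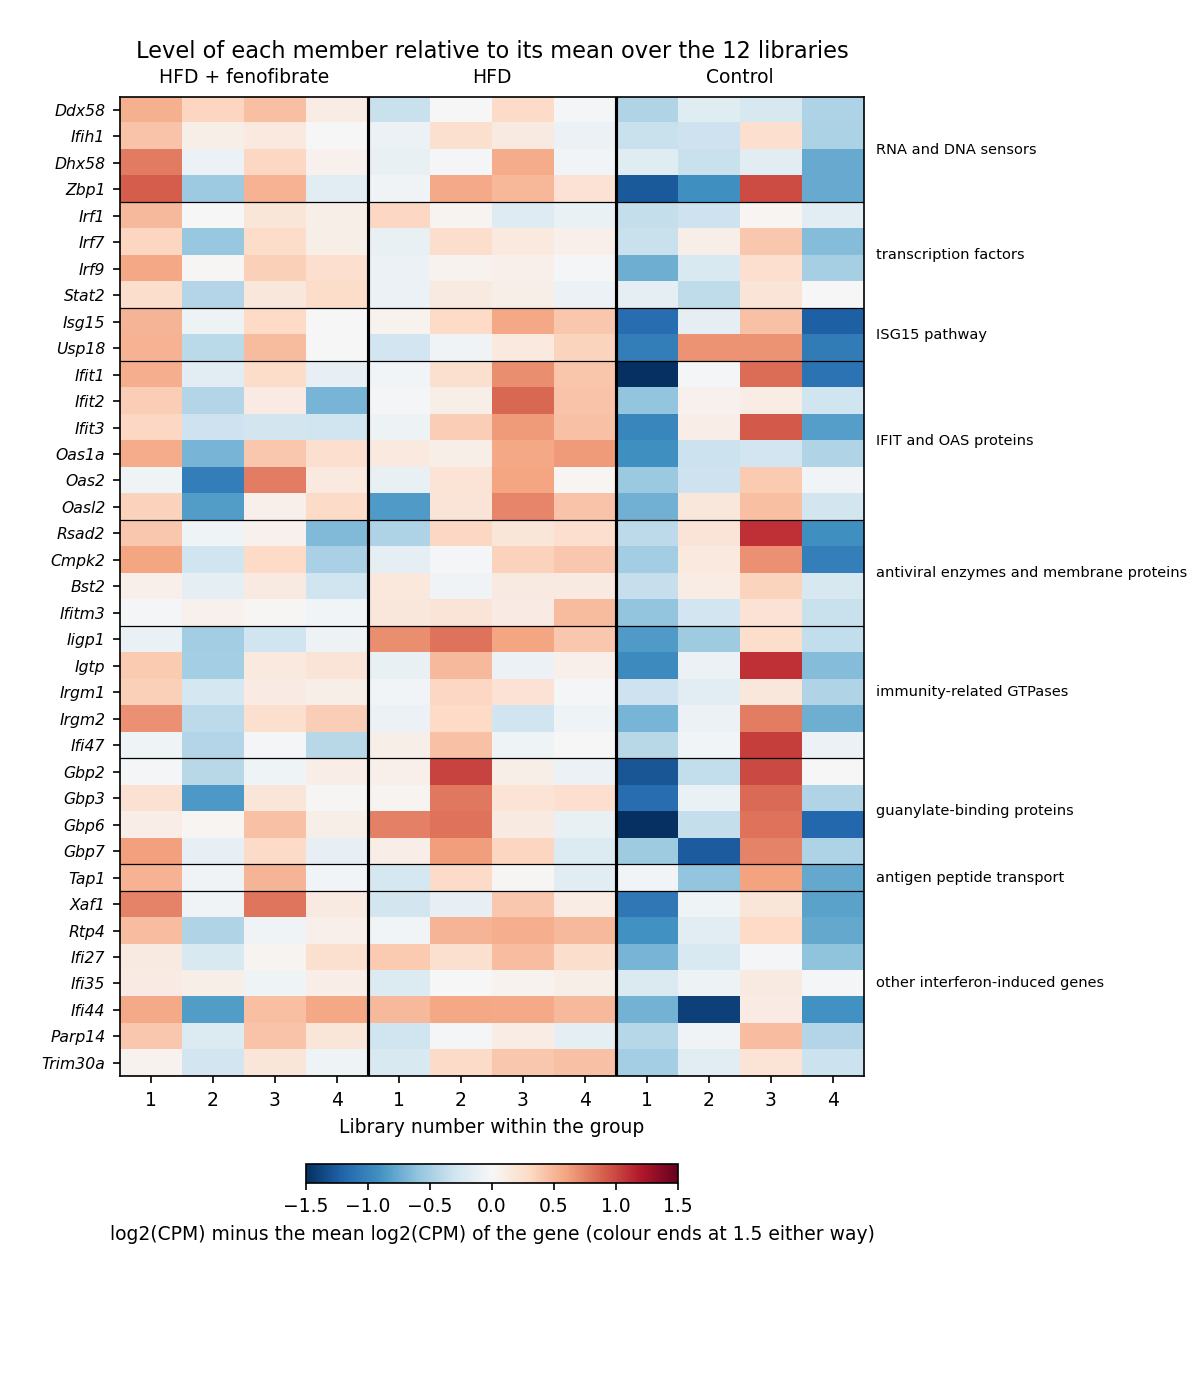
Level of the 37 interferon-stimulated genes (rows, by role) in the 12 libraries (columns, by group), as log2(CPM) minus the mean of the gene over the 12 libraries; red is above and blue below the mean. The Control 3 column is red in most rows and the columns of Control 1 and 4 are blue, and the HFD + fenofibrate 2 column is bluer than its neighbours.

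Averaged over the 37 genes, the level relative to the mean over all libraries was 0.37, -0.30, 0.23 and 0.01 log2 units in HFD + fenofibrate libraries 1 to 4, -0.03, 0.28, 0.29 and 0.17 in HFD libraries 1 to 4, and -0.69, -0.21, 0.44 and -0.56 in Control libraries 1 to 4. Control library 3 was above every other library with TMM scaling, and Control libraries 1 and 4 were the lowest. Without TMM scaling HFD + fenofibrate libraries 1 and 3 (0.53 and 0.44) were above Control library 3 (0.38), which remained the highest of the Control libraries. The 84 other interferon-induced genes gave 0.19, -0.24, 0.12 and -0.05 with fenofibrate, -0.04, 0.20, 0.19 and 0.09 in HFD and -0.37, -0.15, 0.36 and -0.31 in Control, in the same order within Control.

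Markers of several blood and immune cell types were also highest of the Control libraries in library 3. The 8 T cell markers summed to 4.93, 5.04, 5.58 and 5.24 CPM of total counts in HFD + fenofibrate livers, 5.80, 6.06, 6.08 and 3.59 CPM in HFD livers and 4.51, 3.26, 12 and 4.06 CPM in Control livers, and 7 of the 8 were highest of the Control libraries in library 3. None of the 8 was at 0 in any library. The 8 NK and ILC1 cell markers summed to 2.27, 2.43, 4.40 and 3.13 CPM with fenofibrate, 3.44, 3.12, 2.66 and 2.81 CPM in HFD and 4.57, 2.23, 8.57 and 2.03 CPM in Control livers, with 6 of 8 highest in Control library 3; Ncr1 and Eomes were at 0 in some libraries. B and plasma cell markers were 6.35 to 10.2 CPM with fenofibrate, 9.36 to 12 CPM in HFD and 7.66 to 14.8 CPM in Control livers, highest in Control library 3. The 10 Kupffer cell markers summed to 607, 381, 688 and 541 CPM with fenofibrate and 294, 630, 730 and 615 CPM in HFD livers. In Control livers they summed to 415, 527, 546 and 513 CPM. Monocyte and macrophage markers summed to 100, 64.8, 112 and 82.2 CPM with fenofibrate and 61.7, 105, 154 and 120 CPM in HFD livers. Their Control sums were 62.4, 111, 95.1 and 95.3 CPM. Within groups both sums were lowest in HFD + fenofibrate library 2, HFD library 1 and Control library 1, each also lowest for most members. Of the 10 Kupffer cell markers, 8 were highest of the Control libraries in library 3. So were 6 of 7 B and plasma cell, 6 of 9 monocyte and macrophage, 5 of 6 plasmacytoid dendritic cell and 5 of 6 erythroid markers. The same held for 4 of 8 neutrophil, 4 of 6 conventional dendritic cell and 4 of 6 cholangiocyte markers, for 3 of 12 hepatocyte and 3 of 8 stellate cell markers, and for 0 of 8 sinusoidal endothelial markers. Sinusoidal endothelial sums were lowest of their groups in HFD + fenofibrate library 2 (266 CPM), HFD library 1 (172 CPM) and Control library 3 (245 CPM). HFD + fenofibrate library 1, highest of its group for 24 of 37 members, had the lowest T cell and NK and ILC1 cell sums of that group. The part of these markers in the members' levels was not tested.

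**Figure D4:**
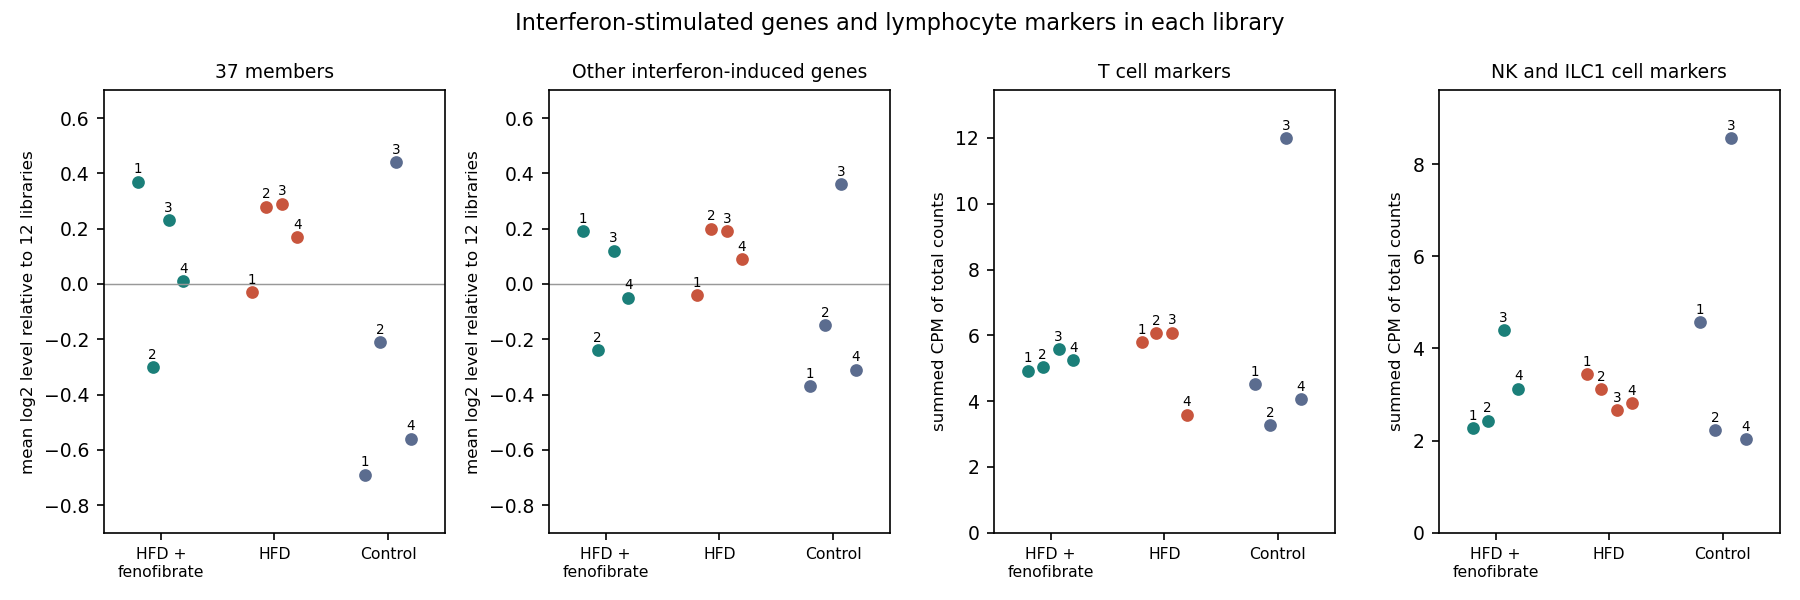
Mean log2 level of the 37 interferon-stimulated genes and of 84 other interferon-induced genes relative to the 12-library mean (left panels), and summed CPM of total counts of 8 T cell and 8 NK and ILC1 cell markers (right panels, axis from 0), each point being 1 library with its number. With TMM scaling in the left panels, Control library 3 is the highest of all 12 libraries in every panel, at 0.44, 0.36, 12 and 8.57.

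Without Control library 3, 14 of 37 genes rose in HFD livers against Control (37.8%), against 5.10% of all genes tested, with a median of 0.56 and 37 of 37 above 0. For HFD + fenofibrate against Control 13 of 37 rose (35.1%), against 4.04% of all genes tested, with a median of 0.48 and 36 of 37 above 0. The 5 genes called with all libraries remained among the 14, joined by Gbp6 (1.39), Zbp1 (1.3), Isg15 (1.10), Ifit1 (1.10), Rtp4 (0.97), Gbp7 (0.94), Ifit3 (0.86), Irf9 (0.48) and Ifih1 (0.42). HFD + fenofibrate against HFD kept 0 higher and 1 lower, Iigp1 (-0.87, adjusted p = 0.00214), where 6.61% of all genes rose and 6.33% fell. At an unadjusted p under 0.05 it had 3 higher and 5 lower, where 15.7% of all genes were higher and 15.4% lower. Leaving out another library also moved the counts for HFD against Control. They were 2 genes (5.41%) without HFD library 4 or Control library 1 or 4. They were 3 (8.11%) without HFD library 2 or 3 or Control library 2. In these fits 4.02% to 5.21% of all genes rose. For HFD + fenofibrate against Control it was 7 without HFD + fenofibrate library 2, where 5.03% of all genes rose, and 1 without HFD + fenofibrate library 1, 3 or 4, HFD library 1, 2 or 4, or Control library 1, 2 or 4, where 2.80% to 6.28% of all genes rose. Each library was left out in turn, and Control library 3 is described apart because the counts moved most without it. It was the highest Control library for 36 of 37 genes, so leaving it out raises their differences from Control by construction. The same holds for Ifih1, Isg15, Gbp7 and Tap1, which passed without it. These counts show how far the result depends on 1 library and are not separate support for a rise.

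**Figure D5:**
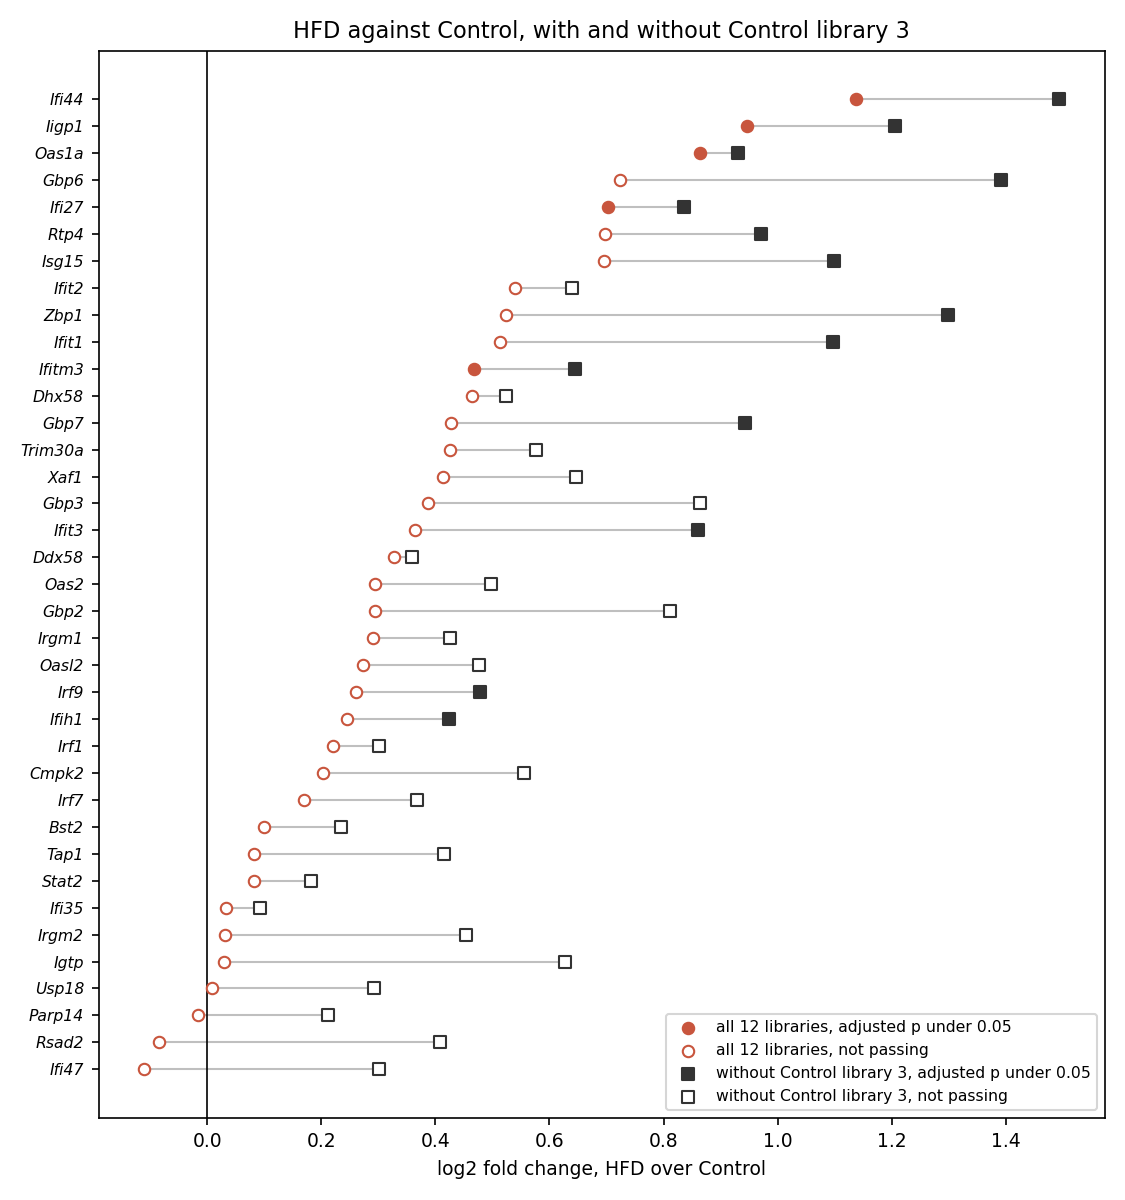
Log2 fold change of HFD over Control (x axis) for the 37 interferon-stimulated genes (rows) with all 12 libraries (circles) and without Control library 3 (squares); filled marks have an adjusted p under 0.05. All 37 squares lie right of their circles and above 0, and 14 are filled against 5 circles. A shift to the right follows from leaving out the library that was highest of the Control libraries for 36 of 37 genes.

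Without HFD + fenofibrate libraries 1 and 3, which carried transcripts of other tissues, 4 genes rose in HFD livers against Control, where 5.26% of all genes tested rose. HFD + fenofibrate livers then had 0 genes higher and 0 lower than HFD livers by edgeR, with a median of -0.36, where 0.898% of all genes were called in either direction. They had 0 higher and 0 lower than Control livers, with a median of 0.06, where 1.56% of all genes rose. At an unadjusted p under 0.05 the counts were 0 higher and 2 lower against HFD, where 7.55% of all genes were lower, and 2 higher and 0 lower against Control, where 8.04% were higher. Only 2 fenofibrate libraries remain in this fit, and few genes of any kind passed in it.

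Upstream of these genes, short lists of pathway parts were looked at. Of 10 interferon genes listed, 3 were in the tables and 0 had enough counts to test: Ifnb1 had 2 counts over the 12 libraries, and Ifng and Ifnk had 3 each. Of 5 interferon receptor genes tested, edgeR and DESeq2 called 0 in each comparison, and 0, 0 and 1 had an unadjusted p under 0.05 for HFD against Control, HFD + fenofibrate against HFD and HFD + fenofibrate against Control. Ifnar2 averaged 41.1 ± 3.52 CPM in HFD + fenofibrate livers, 44.1 ± 4.02 in HFD livers and 47.8 ± 4.57 in Control livers, and Ifnar1 averaged 35.4 ± 1.44 CPM with fenofibrate, 31.9 ± 1.61 in HFD and 32.9 ± 3.61 in Control livers (SD, n = 4 each). Tyk2, a receptor kinase, rose in HFD livers against Control (0.39 ± 0.11, adjusted p = 0.0271) and in HFD + fenofibrate livers against Control (0.49 ± 0.11, adjusted p = 0.00958). Stat3, which serves cytokines of the interleukin 6 family as well, rose with fenofibrate against HFD (0.46 ± 0.12, adjusted p = 0.0206), and Jak2, the kinase of the interferon gamma receptor, fell (-0.41 ± 0.11, adjusted p = 0.029). Tyk2, Stat3 and Jak2 were the kinases and STATs of the list that passed. That was 1 of 5 higher (20.0%) for HFD against Control, where 6.13% of all genes rose. For HFD + fenofibrate against HFD it was 1 higher and 1 lower (20.0% each), where 6.89% rose and 6.59% fell. For HFD + fenofibrate against Control it was 1 higher (20.0%), where 4.86% rose. Of 8 negative regulators, Irf2, a repressor at interferon elements, rose with fenofibrate against HFD (0.57 ± 0.17, adjusted p = 0.0362) and against Control (0.75 ± 0.17, adjusted p = 0.0115). That was 1 of 8 (12.5%) in each, where 6.89% and 4.86% of all genes rose. Of 15 further sensing and adaptor genes tested, Adar, an RNA-editing enzyme, rose with fenofibrate against HFD (0.50 ± 0.13, adjusted p = 0.0216), and no other passed. That was 1 of 15 (6.67%), where 6.89% of all genes rose. Each of these shares of a list rests on 1 gene. The fenofibrate calls on these lists were not examined without HFD + fenofibrate libraries 1 and 3.

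Of 84 other interferon-induced genes tested, 4 rose (4.76%) and 1 fell (1.19%) in HFD livers against Control, shares below those of all genes (6.13% rose and 6.64% fell). Ube2l6, the conjugating enzyme for ISG15, averaged 44.9 ± 7.02 CPM with fenofibrate, 68.9 ± 7.39 in HFD and 35.1 ± 9.41 in Control livers (SD, n = 4 each). It rose with the diet (0.97 ± 0.17, adjusted p = 0.00178) and fell with fenofibrate against HFD (-0.62 ± 0.17, adjusted p = 0.0279), the same directions as Iigp1. Samd9l (0.74), Phf11b (1.06) and Herc6 (0.76), an ISG15 ligase in mice, also rose with the diet, and Trim25, a ligase that activates RIG-I, fell (-0.35). HFD + fenofibrate against HFD gave 4 higher, Mov10, Parp10, Parp12 and Pml (0.45 to 0.54), and 2 lower, Tor3a (-1.10) and Ube2l6, or 4.76% and 2.38% of the 84, where 6.89% of all genes rose and 6.59% fell. HFD + fenofibrate against Control gave 2 higher, Mov10 (0.91) and Pml (0.57), and 2 lower, Tor3a (-1.46) and Trim25 (-0.46), each 2.38% of the 84, where 4.86% of all genes rose and 4.31% fell. The fenofibrate calls among the 84 were not examined without HFD + fenofibrate libraries 1 and 3 either. Control library 3 was the highest Control library for 59 of these 84, so leaving it out raises their differences from Control by construction. Without it the counts for HFD against Control were 15 higher (17.9%, against 5.10% of all genes) and 0 lower. For HFD + fenofibrate against HFD they were 3 higher (3.57%, against 6.61%) and 6 lower (7.14%, against 6.33%). For HFD + fenofibrate against Control they were 10 higher (11.9%, against 4.04%) and 2 lower (2.38%, against 3.66%).

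In the authors' deposited table of HFD over Control, 6 of the 37 genes were higher with an adjusted p under 0.05, Ifi27, Ifi44, Ifitm3, Iigp1, Oas1a and Rtp4, where 5.90% of all genes in it were. The authors' deposited table of HFD + fenofibrate over HFD had 1 lower, Iigp1, where 10.0% of all genes were lower, at a log2 fold change of -0.88 and an adjusted p of 7.63e-10. For Rtp4, which encodes a receptor transport protein, the authors' deposited table gave a log2 fold change of 0.71 for HFD over Control and an adjusted p of 0.0344. The column of the authors' deposited table that marks genes as significant did so for 1 of the 37 in HFD over Control, Ifi44. In all it marked 416 genes there, where 15013 had an adjusted p. For HFD + fenofibrate over HFD it marked 0 of the 37 and 285 genes in all, where 13752 had an adjusted p. The absolute log2 fold change of the genes it marks was at least 1.0 in both tables.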

How the data were processed

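Liver RNA was sequenced in 12 libraries, 4 per group. The 2 deposited tables, which share the HFD libraries, hold whole-number counts for each Ensembl gene, per the file headers. The submitters' processing notes name HTSeq 0.6.0, HISAT2 2.0.5 and StringTie 1.3.2d; the sources used here do not state the strand setting. The deposited fold change (a ratio), log2 fold change, p-value and adjusted p-value come from the authors' own test, and a deposited mean signal per gene was not used, per the file headers. Labels list builds mm8 and mm9, but 92.5% of 25113 identifiers have their GENCODE M21 (GRCm38) position. Tables were joined by identifier, missing genes as 0.

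edgeR 4.0.16 (filterByExpr, TMM, quasi-likelihood, 1 coefficient per group, prior count 0.125) was fitted to all 12 libraries; the common biological coefficient of variation was 0.155. Each SE was taken as absolute log2 fold change over √F from the quasi-likelihood test, and marker sums are CPM of total counts. The steps were tested on simulated counts, drawn independently for each gene. That test does not bear on libraries in which many genes move together. Same-numbered libraries had r from -0.175 to 0.139 after group means were removed, so they were not paired. Chi-square per gene was 13.9 to 38.5 in the 18 pairs of libraries within groups, so no pair looked like repeat sequencing of 1 library. That check cannot tell whether libraries came from separate livers. Values per library, fold change and test are given for each passing gene and, in role classes with fewer than 2, the most abundant up to 2. The members and lists were chosen with earlier results of these data known. Alternatives were other scaling, DESeq2 1.42.0, filters, a stricter threshold, only the 8 libraries compared, a replicate block and libraries left out. Promoter windows are from RefSeq (GRCm38.p6).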

Additional observations from a re-analysis of the deposited data

Results flagged for a closer look

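In 10 of 111 groups of 4 libraries (37 genes in 3 groups), 1 library stood apart by Dixon's test of its gap to the nearest other; chance flags about 1 in 20 groups. In HFD + fenofibrate livers, Ifit3 was high in library 1 (11.1 CPM, the others 7.20 to 7.40), Gbp6 was high in library 3 (3.26 CPM, the others 2.46 to 2.57) and Ifi44 was low in library 2 (1.44 CPM, the others 3.50 to 3.84). In HFD livers, Gbp2 was high in library 2 (11 CPM, the others 5.14 to 5.77), Dhx58 was high in library 3 (10.2 CPM, the others 6.41 to 6.83) and Ifitm3 was high in library 4 (273 CPM, the others 214 to 224). Rtp4 was low in HFD library 1 (14.5 CPM, the others 21.0 to 21.8) and Bst2 was low in HFD library 2 (96.9 CPM, the others 110 to 112). In Control livers, library 3 was high for Ifi47 (42.1 CPM, the others 15.3 to 19.8) and for Zbp1, a sensor of nucleic acids in the Z form (11.9 CPM, the others 2.52 to 3.55).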

How the results depend on the processing

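With HFD against Control, 5 genes were higher, and 2 at an adjusted p under 0.01 (5.41%, where 2.55% of all genes rose). Leaving out each library in turn gave 2 to 14, and 0 lower throughout, where 4.06% to 6.80% of all genes fell. With HFD + fenofibrate against HFD, 0 genes were higher, and 1 (Ddx58) without TMM scaling (2.70%, where 15.3% of all genes rose); leaving out each library gave 0 to 1. The 1 lower gene, Iigp1, was called in each of these, and 0 were lower without HFD + fenofibrate libraries 1 and 3. With HFD + fenofibrate against Control, 2 genes were higher, but 10 without TMM scaling (27.0%, where 15.7% of all genes rose), 7 with DESeq2 (18.9%, against 5.62%), 4 without the low-count filter (10.8%, against 2.92%), 1 with a mean of at least 1 CPM (2.70%, against 5.18%), 1 with only the 8 libraries compared (2.70%, against 3.80%), 1 at an adjusted p under 0.01 (2.70%, against 1.74%) and 0 without HFD + fenofibrate libraries 1 and 3 (against 1.56%); leaving out each library gave 1 to 13. The replicate block gave 5 higher for HFD against Control (13.5%, against 5.54% of all genes). It gave 1 lower for HFD + fenofibrate against HFD (2.70%, against 6.45%) and 3 higher for HFD + fenofibrate against Control (8.11%, against 4.23%). Usp18, HFD + fenofibrate against Control, ranged from -0.077 to 0.443 with each library left out, turned to -0.066 and -0.077 without Control library 1 and 4, and was -0.22 without HFD + fenofibrate libraries 1 and 3, and Bst2, HFD + fenofibrate against HFD, turned to 0.037 without TMM scaling, where the median of all genes was 0.18. The causes were not tested. Of the other single-gene values, 7 were weaker, 1 stronger and 134 on the same side of the threshold and in the same direction; with each library left out, 26 were weaker, 4 stronger and 184 as before.

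The lowest count of a member in a library was 15, for Gbp6 and Ifi44 in Control livers, so counting error weighs most on such genes.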
